A study of Mus musculus with 21 samples.

Results

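The levels of 9 genes of megakaryocytes and platelets were followed in hematopoietic stem cells (HSC) sorted from MMTV-PyMT mice. They are Gp1ba, Gp1bb, Gp9, Itga2b, Gp6, Vwf, Pf4, Thbs1 and Slc6a4, named by symbol, and they are 9 of the 13513 genes listed for sedentary and active HSC and of the 13636 listed for active and transplant HSC. All 9 were chosen because their values differed between these same HSC libraries, so their HSC levels are given as a description and without p-values. The mice carry a transgene in which the mouse mammary tumour virus promoter drives polyoma middle T antigen in mammary epithelium, and every group, sedentary mice included, carries it. Sedentary HSC (libraries 1, 3 and S4) and HSC of physically active mice (libraries 4, 6 and P4) were taken at week 12. Transplant HSC (libraries 11, 12 and PS4) came, at week 14, from sedentary mice that had received cells of a physically active mouse, so transplantation and week cannot be told apart. The labels used here name neither the sorting gate nor the form of activity, nor whether the HSC sorted after transplantation were of donor or host origin. Each group had 3 libraries called biological replicates, and mammary tumours of sedentary and active mice at weeks 12 and 18 make up the other 12 of the 21 libraries.

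Megakaryocytes are large bone marrow cells that shed platelets. Platelets stick to injured vessels through a receptor for von Willebrand factor and a receptor for collagen, join to each other through an integrin that binds fibrinogen, and release proteins stored in granules. Some of these genes, Vwf and Itga2b among them, are also known to be transcribed in a platelet-biased fraction of HSC, and the transcription factors GATA1, FLI1 and other ETS proteins are known activators of the program.

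The stretches in front of the transcription start are shown first because the 9 genes moved together across the libraries, and because GATA motifs are the textbook feature of such promoters. RefSeq windows on GRCm38.p6 were at hand for 7 of the 9 genes, all but Vwf and Thbs1. The 250 bases upstream of the start are printed 5′ to 3′ on the strand of the gene, with matches to the motif AGATAA and its variants (AGATAG as well as TGATAA, and also TGATAG) on either strand in capitals. The 3 chains of the von Willebrand factor receptor come first, Gp1ba at chr11:70638872-70639121 (plus strand), Gp1bb at chr16:18622404-18622653 (minus strand) and Gp9 at chr6:87777820-87778069 (plus strand). The collagen receptor Gp6 at chr7:4397745-4397994 (minus strand) and the serotonin transporter Slc6a4 at chr11:76998347-76998596 (plus strand) follow as the other members with a match.
Gp1ba: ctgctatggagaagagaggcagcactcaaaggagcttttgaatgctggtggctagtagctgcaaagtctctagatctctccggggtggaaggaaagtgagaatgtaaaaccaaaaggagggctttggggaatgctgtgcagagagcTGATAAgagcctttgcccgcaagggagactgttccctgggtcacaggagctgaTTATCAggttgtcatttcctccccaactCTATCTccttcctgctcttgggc
Gp1bb: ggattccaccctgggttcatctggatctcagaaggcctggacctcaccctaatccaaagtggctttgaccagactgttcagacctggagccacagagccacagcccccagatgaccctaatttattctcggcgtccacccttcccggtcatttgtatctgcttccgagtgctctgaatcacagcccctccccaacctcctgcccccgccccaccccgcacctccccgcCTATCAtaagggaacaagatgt
Gp9: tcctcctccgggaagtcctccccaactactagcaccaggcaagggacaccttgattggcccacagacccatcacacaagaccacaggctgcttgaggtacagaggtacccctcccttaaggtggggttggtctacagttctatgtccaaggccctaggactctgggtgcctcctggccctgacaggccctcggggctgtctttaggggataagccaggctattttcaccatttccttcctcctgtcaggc
Gp6: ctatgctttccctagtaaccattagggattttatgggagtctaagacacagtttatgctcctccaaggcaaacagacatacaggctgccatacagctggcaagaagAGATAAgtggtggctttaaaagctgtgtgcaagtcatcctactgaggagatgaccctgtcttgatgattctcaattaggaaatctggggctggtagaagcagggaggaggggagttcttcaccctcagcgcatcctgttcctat
Slc6a4: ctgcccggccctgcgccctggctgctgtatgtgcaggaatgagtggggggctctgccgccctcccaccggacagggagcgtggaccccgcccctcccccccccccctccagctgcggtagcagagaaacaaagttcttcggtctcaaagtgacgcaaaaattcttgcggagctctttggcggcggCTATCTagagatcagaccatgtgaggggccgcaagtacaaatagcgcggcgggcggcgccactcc
Matches began 104, 51 and 23 bases upstream of the start in Gp1ba, 22 in Gp1bb, 144 in Gp6 and 65 in Slc6a4. They were found in 4 of the 7 member windows and in 26.5% of the 32851 windows of the same length in the table. The ETS core GGAAG, on either strand, was found in 5 of the 7 and in 64.1% of all windows. These letters describe the windows and do not show that a factor binds them.

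The library numbered 6 stands apart, and each result on active HSC depends on it. The first of 2 deposited HSC tables compares active with sedentary HSC, the second transplant with active HSC, and both hold active libraries 4, 6 and P4. Recovered read counts of libraries 4 and P4 were unequal between the tables at only 4 of 13380 shared genes each. Those of library 6 were unequal at 13086, where the column was headed P3 (6) in the first table and P2 (6) in the second. Across 12249 genes other than the 9, the column of the first table had Spearman coefficients of 0.981 to 0.990 with the transplant libraries and of 0.938 to 0.957 with the sedentary ones. The column of the second table had 0.992 to 0.996 with the sedentary libraries and 0.959 to 0.972 with the transplant ones. These coefficients are across genes of single libraries and carry no test. Which column belongs to the sample labelled active replicate 2 is not known, and both columns are therefore given apart below.

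HSC libraries held 16406889 to 24574563 recovered reads for replicates 1 and 2 and 58500940 to 72417315 for replicate 3, whose names begin with a letter. To set the groups side by side, recovered reads of all 10 columns were put on 1 scale by the median of ratios. Values below are normalised read counts on that joint scale unless stated otherwise. In bulk RNA, more cells of a type and more RNA per cell cannot be told apart.

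**Figure D1:**
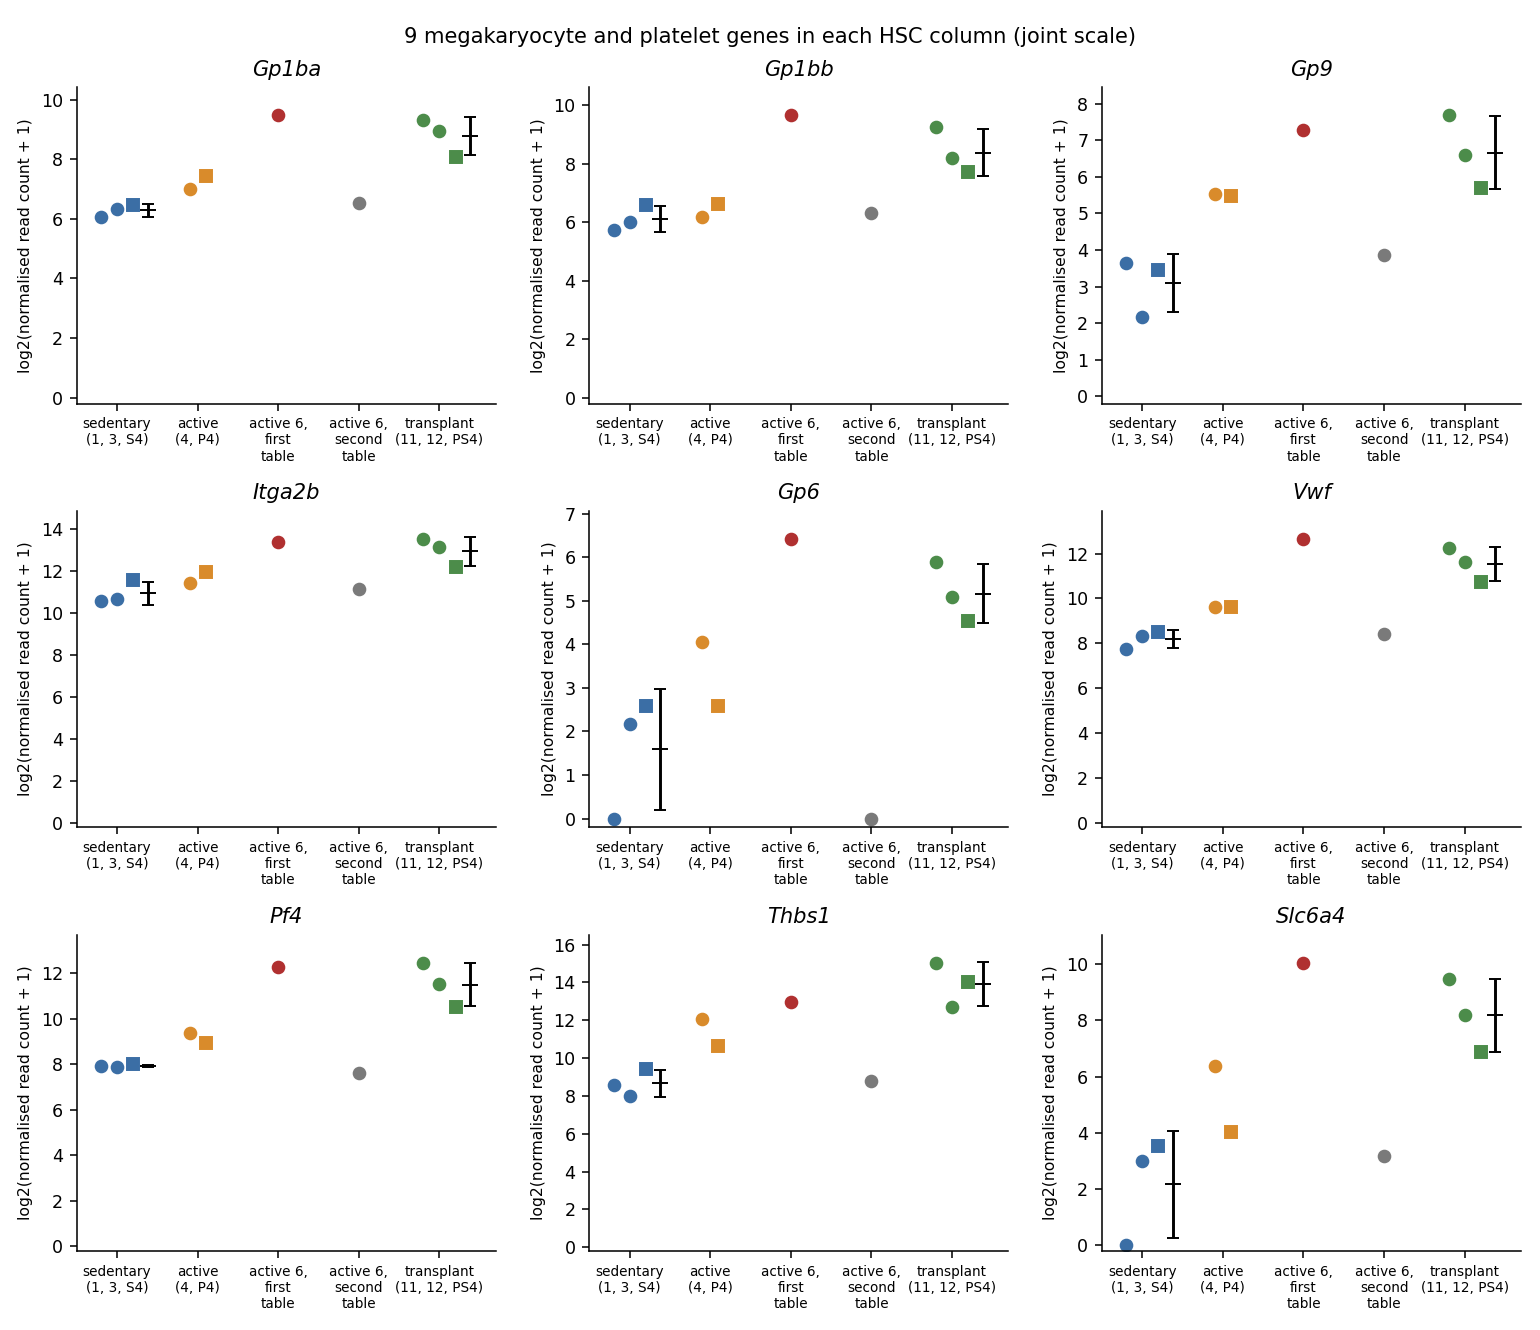
Each panel plots log2(normalised read count + 1) of a gene on the joint scale in the 10 HSC columns, with squares for replicate 3, circles for the others, and a black bar for the mean ± SD of the 3 sedentary or 3 transplant libraries on that axis. All 3 transplant libraries lie above all 3 sedentary libraries in every panel, and library 6 lies at or above the lowest transplant library in its first column and well below it in its second.

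Gp1ba, the chain that binds von Willebrand factor (chromosome 11, 70639122 to 70642036, GRCm38), was at 65.4, 79.3 and 87.0 in sedentary libraries 1, 3 and S4. Active libraries 4 and P4 held 128 and 174, and transplant libraries 11, 12 and PS4 held 641, 492 and 266. Active HSC without library 6 thus lay above every sedentary and below every transplant library. Library 6 was at 706 in the first table, above all transplant libraries, and at 90.3 in the second, close to the highest sedentary library. The mean was 77.2 ± 10.9 (SD, n = 3) in sedentary and 466 ± 189 (SD, n = 3) in transplant HSC, a ratio of 6.04.

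Gp1bb, a small chain that the receptor needs to reach the surface (chromosome 16, 18620317 to 18622403), was at 52.3, 63.5 and 96.0 in sedentary and at 71.7 and 97.9 in active libraries 4 and P4. Those groups overlapped. Transplant libraries held 614, 290.2 and 208, and library 6 held 806 in the first table and 79.5 in the second. The gene lies within annotated neighbours on the same strand, so its reads may be shared with them. Gp9, the other small chain (chromosome 6, 87778072 to 87779768), was at 11.4, 3.53 and 9.995 in sedentary libraries, which is 7, 2 and 20 reads. Libraries 4 and P4 held 45.4 and 43.8 and transplant libraries 205, 95.5 and 50.7, again without overlap. Library 6 was at 155 in the first table and at 13.5 in the second. The transplant mean was 14.1 times the sedentary mean for Gp9 and 5.26 times for Gp1bb.

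Itga2b, the integrin chain also called CD41 that pairs with Itgb3 to bind fibrinogen (chromosome 11, 102453297 to 102470122), was far more abundant. Its values were 1530.3, 1657 and 3038 in sedentary libraries, 2778 and 3975 in active libraries 4 and P4, and 11795, 9219 and 4670.5 in transplant libraries. Active library 4 fell within the sedentary range, and every transplant library lay above every other column except that of library 6 in the first table, at 10991. In the second table library 6 was at 2278. The ratio of the transplant to the sedentary mean was 4.13, the smallest among the 9 genes.

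Gp6, the collagen receptor of platelets (chromosome 7, 4363965 to 4397744), was near the limit of detection in sedentary HSC, with 0, 2 and 10 reads or 0, 3.53 and 4.998 on the joint scale. Active libraries 4 and P4 held 15.5 and 4.96, the second of which lies within the sedentary range. Transplant libraries held 57.9, 33.1 and 22.1, all above the sedentary and active values. Library 6 had 60 reads (84.6) in the first table and 0 in the second. Taking 3 reads as the floor of the second column, the first was at least 20.9-fold higher, a bound that covers counting error only.

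Vwf, the adhesive glycoprotein that the Gp1ba receptor binds and that endothelium also makes (chromosome 6, 125546774 to 125686679), was at 216, 323 and 368 in sedentary libraries. Libraries 4 and P4 held nearly equal values, 788.5 and 788.2, and transplant libraries held 4886, 3130.0 and 1708. The 3 sets of libraries did not overlap. Library 6 was at 6360.2 in the first table, above every transplant library, and at 345 in the second, within the sedentary range. The transplant mean was 10.7 times the sedentary mean.

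Pf4, the chemokine platelet factor 4 of the alpha granules (chromosome 5, 90772435 to 90773383), had the tightest sedentary values, 239, 234 and 254. Libraries 4 and P4 held 663 and 484, and transplant libraries held 5558, 2897 and 1479. Library 6 was at 4883 in the first table. In the second it was at 197, below every sedentary library. The mean was 242 ± 10.2 (SD, n = 3) in sedentary and 3311 ± 2071 (SD, n = 3) in transplant HSC, a ratio of 13.7.

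Thbs1, thrombospondin 1, a secreted adhesive protein of granules and of many other cells (chromosome 2, 118111876 to 118127133), was at 386, 256 and 676 in sedentary libraries. Library 4 held 4275 and P4 held 1601, both above the sedentary range and below the transplant libraries at 33199, 6682 and 16425. Library 6 was at 8113 in the first table and 441 in the second. The transplant mean was 42.7 times the sedentary mean. Thbs1 was the only member whose lowest transplant library was 12 and not PS4.

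Slc6a4, the serotonin transporter through which platelets take up serotonin (chromosome 11, 76998603 to 77032340), was almost absent from sedentary HSC, with 0, 4 and 21 reads or 0, 7.05 and 10.5 on the joint scale. Library 4 held 81.2 and library P4 15.3, and transplant libraries held 706, 291 and 115. The active libraries thus differed from each other more than P4 differed from the highest sedentary library. Library 6 was at 1051 in the first table, above all transplant libraries, and at 8.09 in the second. The ratio of the transplant to the sedentary mean, 63.4, was the largest of the 9 and rests on these few sedentary reads.

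Without either column of library 6, active libraries 4 and P4 both lay above every sedentary library for 6 of the 9 genes, against 12.8% of all 13346 genes with a mean of at least 1. The exceptions were Gp1bb, Itga2b and Gp6. They both lay below every transplant library for all 9, against 15.1% of all genes, and between the sedentary and transplant groups for 6, against 4.32%. Since the genes were chosen on these libraries, the shares are a description only. Ratios to the sedentary mean ran from 1.02 (Gp1bb) to 13.9 (Slc6a4) in library 4 and from 1.39 (Gp1bb) to 5.26 (Gp9) in library P4.

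The first column of library 6 was at or above the lowest transplant library for all 9 genes, as it was for 75.6% of all genes, and above the highest for 5 of them. The second column was at or below the highest sedentary library for 7 of the 9, all but Gp9 and Gp1ba, as it was for 83.5% of all genes. The first column exceeded the second by between 4.82 times (Itga2b) and 130.0 times (Slc6a4), apart from Gp6, whose second column was at 0.

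For active against sedentary HSC, log2 fold changes of value + 1 were taken within the first table. The 9 genes were higher in active HSC by 1.33 to 4.58, with a median of 2.42 against 0.0037 over all 13513 genes tested. The 3 active libraries lay above all 3 sedentary ones for 6 of the 9 genes, where 10.4% of all genes did so. With the other column of library 6 in its place the median was 0.71, between 0.26 for Gp1bb and 2.30 for Slc6a4, and the groups did not overlap for 2 of 9, Gp9 and Gp1ba, against 3.04% of all genes. Without any library 6 the median was 1.41. Limma with Benjamini-Hochberg adjustment called 0% of all genes (0 of 13513) in this comparison, 1252 having an unadjusted p under 0.05, edgeR also called 0 and DESeq2 called 257.

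For transplant against active HSC, taken within the second table and sharing the active libraries with the comparison above, the 9 genes were higher in transplant HSC by 1.44 (Itga2b) to 3.64 (Slc6a4), with a median of 2.30 against 0.00029 over 13633 genes. Groups did not overlap for 9 of 9, against 13.1% of all genes. With the other column of library 6 the median was 0.90 and the groups overlapped for all 9 genes, so the count was 0, against 2.71% of all genes. Without library 6 the median was 1.91. Limma called 0.0513% of all genes here, 7 of 13633, and 0 with the replicate number as a block.

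Transplant against sedentary HSC needs no library 6. Joined and scaled over these 6 libraries alone, the 9 genes were higher in transplant HSC by 2.01 (Itga2b) to 5.99 (Slc6a4), with a median of 3.56 against -0.00046 over 13329 genes. Groups did not overlap for 9 of 9, against 20.3% of all genes. Standard errors were largest for Slc6a4, at 1.11, and smallest for Gp1ba, at 0.34. All 9 genes had a mean of at least 1 in both groups of each HSC comparison, so none entered only through its higher group.

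**Figure D2:**
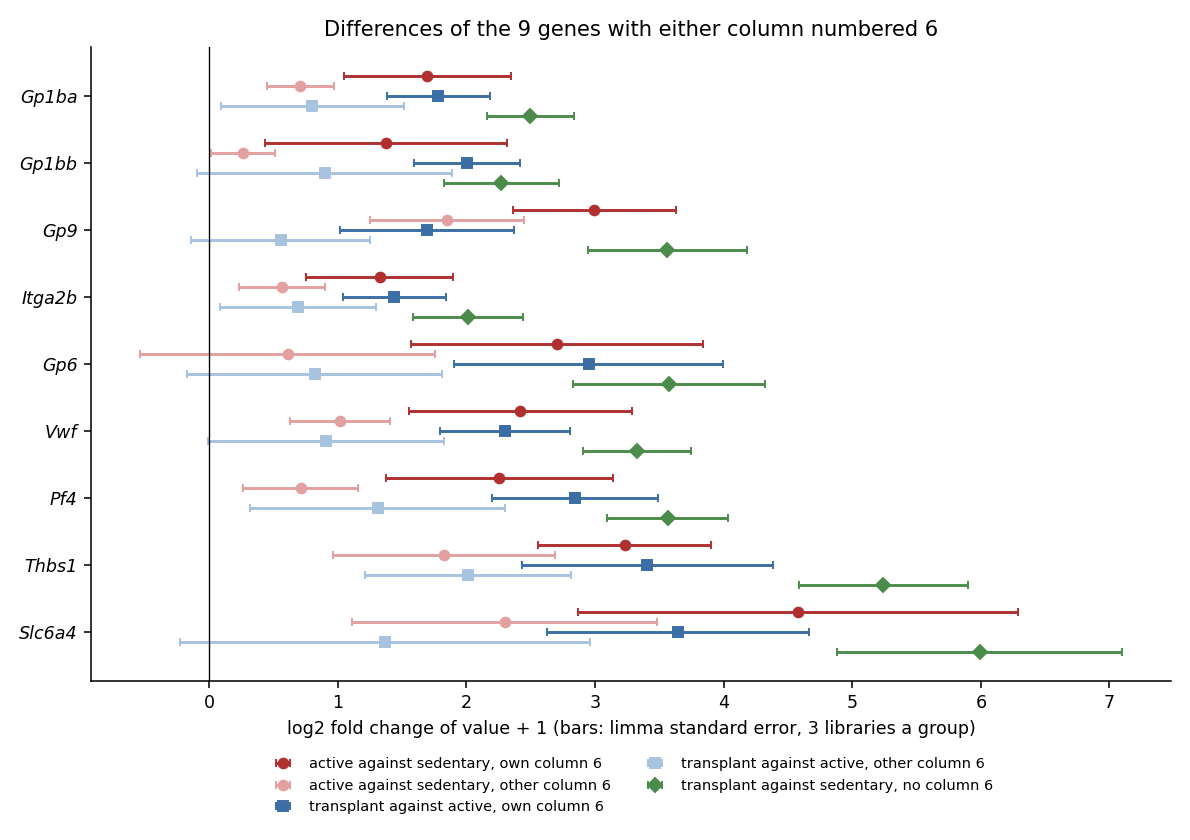
Points are log2 fold changes of value + 1 for each of the 9 genes, with limma standard errors as bars and 3 libraries a group, for each comparison with its own column numbered 6 and with the other one. Exchanging the column lowers every gene in both comparisons of active HSC, from a median of 2.42 to 0.71 against sedentary and from 2.30 to 0.90 for transplant against active HSC.

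The name style that separates replicate 3 from replicates 1 and 2 crosses the groups, so each comparison can be read within it. In replicates 1 and 2 alone the median over the 9 genes was 3.08 for active against sedentary HSC and 2.90 for transplant against active HSC, each with its own column of library 6 as 1 of only 2 active libraries, and 4.08 for transplant against sedentary HSC. Library 4 without library 6 stood at 1.24 (Gp1bb) to 23.0 times (Slc6a4) the mean of libraries 1 and 3. In replicate 3, which holds 1 library a group, P4 stood at 0.99 (Gp6) to 4.38 times (Gp9) the value of S4, and PS4 at 1.54 (Itga2b) to 24.3 times (Thbs1). Direction was therefore shared by both sets, apart from Gp6 in P4. The ratio of PS4 to S4 was smaller than that of libraries 11 and 12 to libraries 1 and 3 for all 9 genes.

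The 9 genes also varied together within the transplant group. Library 11 exceeded 12, and 12 exceeded PS4, for 8 of the 9 genes, all but Thbs1. The same order held for 23.9% of all 13346 genes and for 54 of 67 other megakaryocyte genes. The highest transplant library exceeded the lowest by 2.41 (Gp1ba) to 6.13 times (Slc6a4). Over the 8 libraries other than library 6, the Pearson coefficient of each gene with the mean of the other 8 ran from 0.914 for Gp9 to 0.995 for Vwf on standardised log2 values. This describes genes chosen for 1 pattern.

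Among the other 11611 genes with a mean of at least 20, those most like the 9 over the same 8 libraries were Fam63a, Rdh12, Cd84, Irs2, Timp3 and Crot, with Pearson coefficients of 0.992 to 0.994. Timp3, a secreted inhibitor of metalloproteases, was at 299, 309 and 505 in sedentary, 769 and 931 in active libraries 4 and P4, and 7308, 3895 and 1878 in transplant libraries. Irs2, an adaptor of insulin signalling, stood at 134, 122 and 194, at 333 and 319, and at 1125, 803 and 478 in the same order. In both, every transplant library lay above both active libraries, and these above every sedentary one. These are the same 8 libraries that define the pattern.

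Levels of different genes were compared only per kb of exon, where the length was the union of all exons annotated to the gene in GENCODE M21. It was 16064 bases for Vwf and 721 for Pf4. This union can be longer than any 1 transcript of the gene, so the order below may depend on that choice. In sedentary HSC the order was Itga2b (380.5 ± 153, SD, n = 3), Pf4 (336 ± 14.1), Thbs1 (72.3 ± 35.4), Gp1bb (33.8 ± 10.9), Gp1ba (28.4 ± 4.02), Vwf (18.8 ± 4.86), Gp9 (9.45 ± 4.79), Slc6a4 (1.29 ± 1.18) and Gp6 (0.48 ± 0.44) normalised reads per kb. Ranges of the 3 libraries overlapped between Itga2b and Pf4, between Thbs1 and Gp1bb, between Gp1bb and Gp1ba, and between Slc6a4 and Gp6. Within each library, however, Thbs1 exceeded Gp1bb and Gp1bb exceeded Gp1ba in all 3, whereas Itga2b exceeded Pf4 only in S4, and Slc6a4 and Gp6 were both at 0 in library 1. In transplant HSC Pf4 led with 4593 ± 2872 per kb (SD, n = 3), followed by Thbs1 with 3090.5 ± 2209 and Itga2b with 1570 ± 661, and the ranges of all 3 overlapped. Pf4 stood above 65.9% of protein-coding genes in sedentary and above 98.1% in transplant HSC. Gp6 remained the lowest of the 9, above 12.7% of protein-coding genes in transplant HSC.

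**Figure D3:**
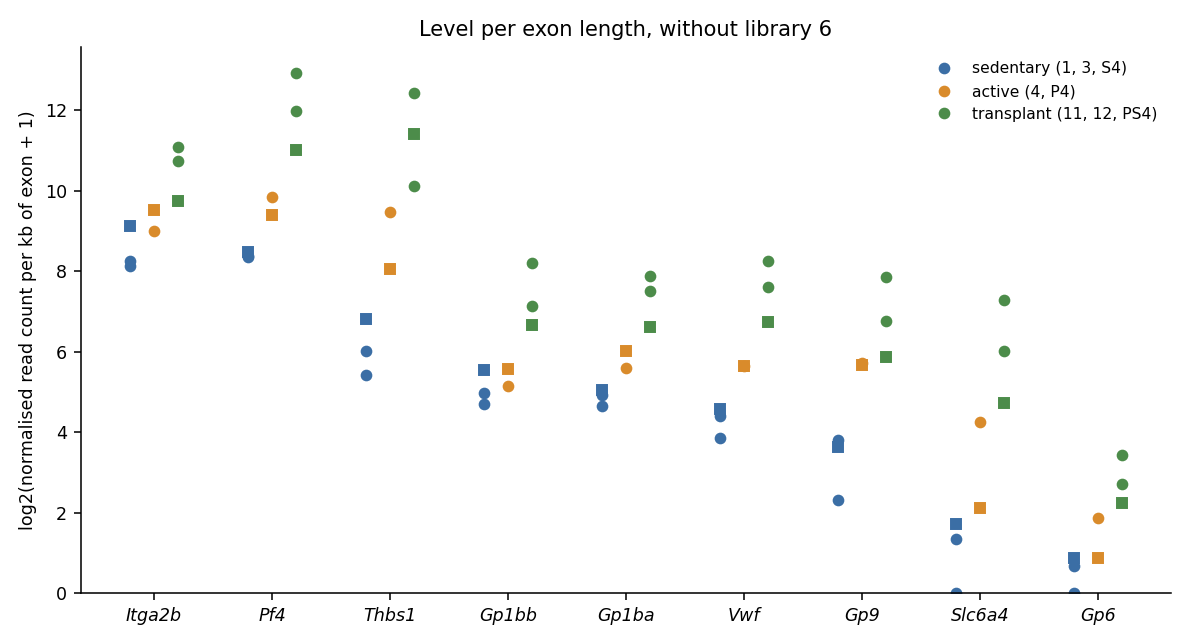
The vertical axis is log2(normalised read count per kb of exon + 1), with 1 point for each sedentary, active and transplant library other than library 6, squares for replicate 3, and genes ordered by their sedentary mean. Itga2b and Pf4 lead in sedentary HSC and Gp6 is lowest in both groups.

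The rest of the megakaryocyte program was read from a list of 71 further symbols, of which 67 were listed in both HSC tables. Mpig6b and Cavin2 were listed under their older symbols G6b and Sdpr, and Cd36 and Myl9 were not used here. In transplant against sedentary HSC, 26 of the 67 rose past an adjusted p of 0.05 (limma, Benjamini-Hochberg over 13329 genes) and 0 fell, where 7.94% of all genes rose and 3.71% fell. The median log2 fold change was 1.15. By role, 9 of 15 granule and secreted genes rose, 8 of 18 genes of the cytoskeleton, signalling and enzymes, 7 of 20 surface receptors and 2 of 14 transcription factors.

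The 4 with the smallest p were all listed as granule and secreted genes. F5, clotting factor V, rose by 2.84 ± 0.26 (log2, SE, adjusted p = 0.0077 by limma), from 187 ± 62.0 to 1318 ± 235 (SD, n = 3 each). Ppbp, the platelet chemokine, rose by 4.77 ± 0.46 (adjusted p = 0.0091, limma), from 51.8 ± 8.88 to 1639 ± 1106 (SD, n = 3 each). F13a1, a subunit of clotting factor XIII, rose by 3.17 ± 0.36 (adjusted p = 0.011, limma), and Srgn, the granule proteoglycan serglycin, by 1.50 ± 0.15 (adjusted p = 0.0091, limma). Partners and other relatives of the 9 genes divided. Gp5, the remaining chain of the von Willebrand factor receptor, rose by 2.44 ± 0.50 (adjusted p = 0.037, limma). Itgb3, the partner of Itga2b, had a difference of 1.74 ± 0.43 (adjusted p = 0.055, limma) that missed the threshold although its groups did not overlap. Clec1b, a receptor for podoplanin, had 4.17 ± 1.06 (adjusted p = 0.058, limma), and Gata1 had 1.86 ± 0.50 (adjusted p = 0.065, limma). The 2 transcription factors that passed were Ets1, with 1.48 ± 0.28 (adjusted p = 0.032, limma), and Fli1, with 0.65 ± 0.14 (adjusted p = 0.041, limma). Gp5, Itgb3, Clec1b, Gata1, Ets1 and Fli1 were named after their values were seen, as relatives or transcription factors of the same program.

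The count of 26 rests on few libraries. It was 6 without sedentary library 1, 5 without sedentary library 3, 11 without transplant library 11 and 4 without transplant library 12. Over all genes, the number called higher was 219, 182, 334 and 174 in these fits, against 1058 in the main fit. Leaving out sedentary library S4 gave 23 other megakaryocyte genes, with 1096 of all genes called higher. Leaving out transplant library PS4 gave 37, of which 36 were higher, with 1048 of all genes called higher. Of the genes named above, Ppbp passed in all 13 alternatives. F5, Srgn and F13a1 lost their calls only with the replicate number as a block (adjusted p = 0.054, 0.054 and 0.068, limma). Gp5 lost its call in 6, Ets1 in 5 and Fli1 in 7. In active against sedentary HSC and in transplant against active HSC, 0 of the 67 passed by limma, with medians of 0.84 and 0.74. At an unadjusted p under 0.05 (limma) were 14 and 33, against 1252 of 13513 and 2422 of 13633 genes. With the other column numbered 6 the medians were 0.29 and 0.34, and again 0 passed the threshold. There 7 and 0 had an unadjusted p under 0.05 (limma), against 357 of 13366 and 331 of 13380 genes. With their own columns DESeq2 called 11 and 28, all higher, against 257 of 13513 and 1107 of 13633 genes, and edgeR 0 in both.

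**Figure D4:**
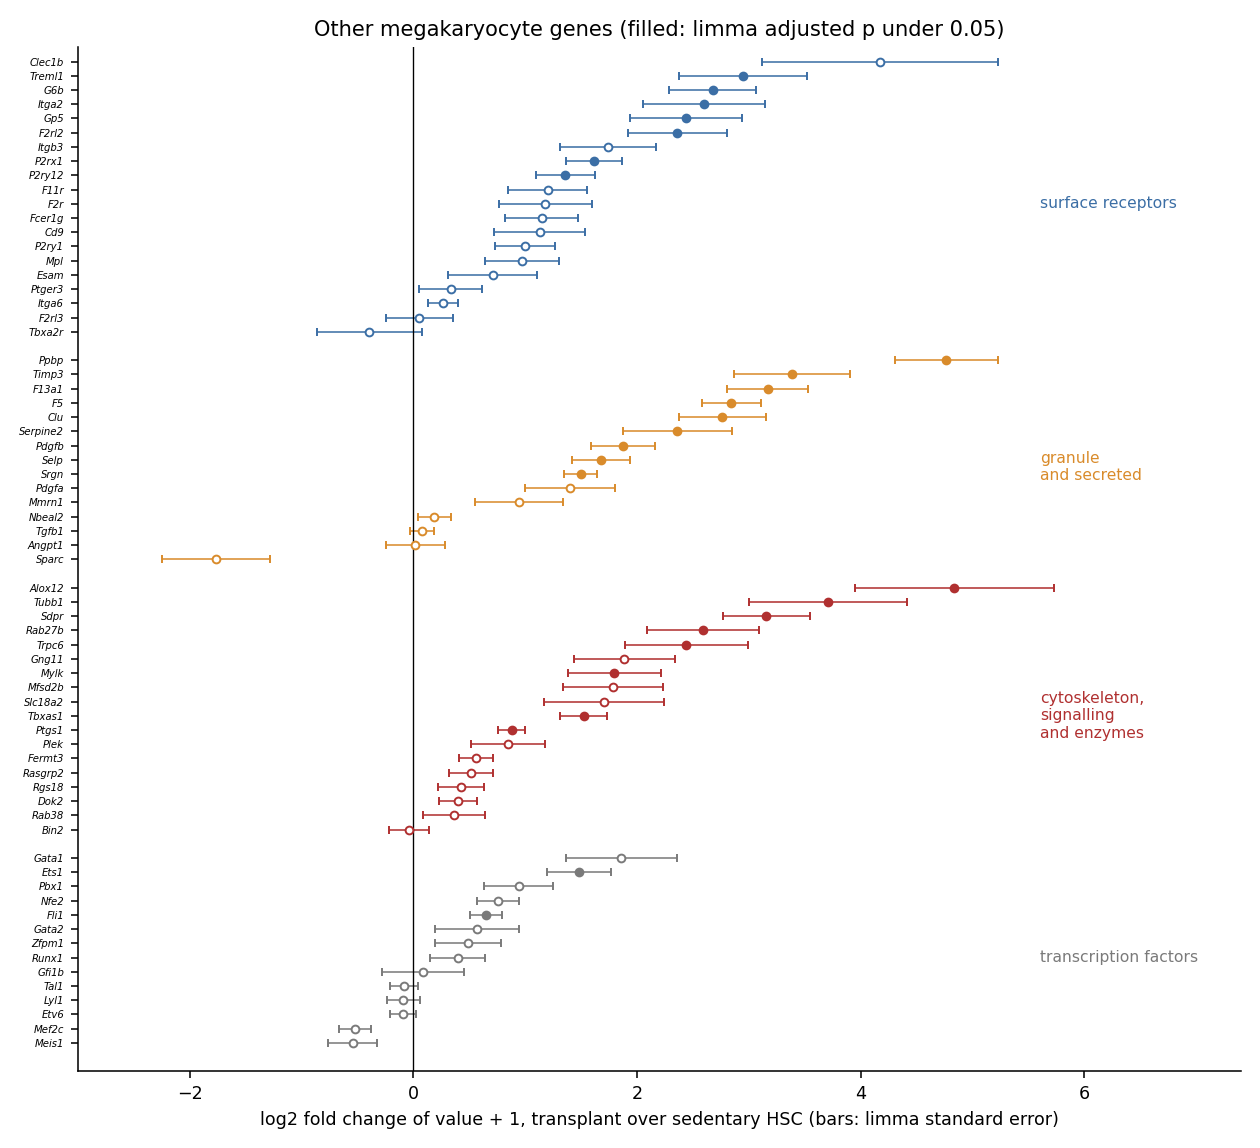
Each point is the log2 fold change of value + 1 of 1 of the 67 other megakaryocyte genes, transplant over sedentary HSC, with the limma standard error as a bar, grouped by role and filled where the adjusted p is under 0.05. The 26 filled points are all to the right of 0, and transcription factors hold 2 of them.

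Markers of other blood cells moved with the same libraries. In transplant against sedentary HSC, limma called 12 of 12 neutrophil and primary granule genes higher, 3 of 8 of monocytes and macrophages and 3 of 8 of mast cells and basophils. It called 5 of 6 lymphoid genes lower, where 7.94% of all genes were called higher and 3.71% lower. The summed level of the neutrophil list was 84569 to 122654 in sedentary and 314920 to 405493 in transplant libraries, and that of the monocyte and macrophage list 7359 to 12597 and 30740 to 71266. In transplant libraries most of the latter was Lyz2, at 14720 to 51827, and Ly6c2, at 8212 to 9853. Of its 8 genes 7 were higher, 6 of them without overlap, against 20.3% of all genes. Mrc1 overlapped, at 944 to 1416 in sedentary and 489 to 1284 in transplant libraries. The lymphoid sum was 3530 to 4372 in sedentary and 93.0 to 345 in transplant libraries. S100a8, a calprotectin chain of neutrophils, rose by 4.13 ± 0.25 (log2, SE, adjusted p = 0.0052, limma), and Flt3, a receptor of lymphoid-primed progenitors, fell by 4.18 ± 0.42 (SE, adjusted p = 0.0091, limma). S100a8 passed in all 13 alternatives and Flt3 in all but the replicate block (adjusted p = 0.052, limma). S100a9, Lcn2, Ly6c2 and Rag2 also passed in all 13. Other calls in these lists were less stable. Those of Prtn3 and Rag1 were lost in 9 alternatives, those of Dntt and Il7r in 8, and those of Ltf, Lyz2, C1qb and Fcer1a in 6. The part of these blood cells in the levels of the 9 genes was not tested.

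Library 6 repeated this split, with a neutrophil sum of 441710 and a lymphoid sum of 93 in the first table and 87961 and 3518 in the second. The neutrophil granule genes Ngp and Ltf reached 33048 and 23300 in its first column against at most 5651 and 3146 in the transplant libraries. Library 4 also held a higher neutrophil sum than P4, 254098 against 149815, and a lower lymphoid one, 1373 against 2622.

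Stem and progenitor markers were detected in all columns. Kit was at 5111 to 7261 across all 10, and Ly6a at 644 to 1653. Fgd5 was at 34.3, 72.3 and 52.0 in sedentary and at 25.4, 15.9 and 4.09 in transplant libraries. In the first and second columns of library 6 it was at 2.82 and 113. Of the 11 stem cell genes, 4 were higher in transplant than in sedentary HSC, with a median log2 fold change of -0.45. By limma, of 11 stem cell genes tested Slamf1 rose in transplant against sedentary HSC (1.72 ± 0.39, adjusted p = 0.047) while Cd34, Hlf and Mecom fell. Over 13 alternatives the calls of Slamf1 and Mecom were lost in 8 each and those of Cd34 and Hlf in 4 each, with adjusted p up to 0.14 for Slamf1. The summed stem cell level did not overlap, at 26046 to 28855 in sedentary and 17308 to 19387 in transplant libraries. It was 18374 and 28235 in the first and second columns of library 6. Most of the difference in this sum was that of Cd34, at 14287.5 to 17987 in sedentary and 5934 to 8394 in transplant libraries. Kit, at 5111 to 6433 and 5691 to 6959, and Cd48, at 2054 to 2570 and 2017 to 2317, overlapped between these groups. Of 8 endothelial genes none passed by limma, 5 were higher and the median was 0.25. Their summed level did not overlap, at 4591 to 5962 in sedentary and 6138 to 8364 in transplant libraries. It was 6689.9 and 5516 in the first and second columns of library 6. Most of this sum was Pecam1, at 3966 to 5129 in sedentary and 5625 to 7347 in transplant libraries. Kdr, with 2.10 ± 0.57 (adjusted p = 0.069, limma), and Pecam1, with 0.51 ± 0.17 (adjusted p = 0.11, limma), were higher in every transplant library, and Cdh5, a defining gene, was lower in each with -2.35 ± 0.75 (adjusted p = 0.097, limma) and stood at 0 to 17.0 over the 10 columns. Vwf and Thbs1 are also known as genes of endothelium, and the part of such cells was not tested. Of 12 erythroid genes none passed by limma, but 11 were higher, with a median of 0.69, and 4 without overlap, against 20.3% of all genes. These 4 include Epor, the erythropoietin receptor, with 2.38 ± 0.62 (adjusted p = 0.062, limma), and Hba-a2, an alpha globin, with 1.43 ± 0.36 (adjusted p = 0.057, limma). The erythroid sum overlapped between sedentary (20810 to 29789) and transplant libraries (22429 to 25671), and most of it came from Tfrc, the transferrin receptor of dividing cells, at 17953 to 27053. No listed gene of these lists was at 0 in all columns, and Hoxb5, Alas2, Rhag, Hba-a1, Adgre1, C1qa, Cd79a and Cd3e were not used here.

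**Figure D5:**
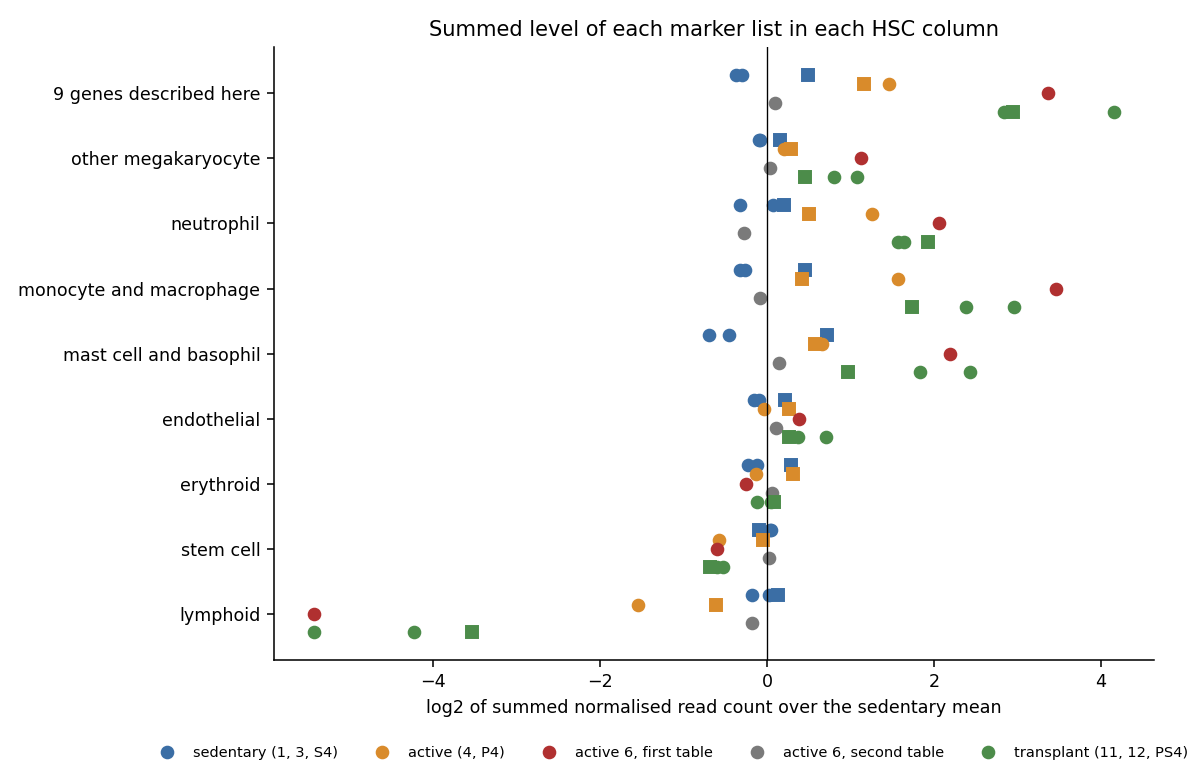
The horizontal axis is the log2 ratio of the summed normalised read count of each marker list to its mean over the 3 sedentary libraries, with 1 point for each HSC column and squares for replicate 3. The transplant libraries and the first column of library 6 lie to the right for the 9 genes, other megakaryocyte, neutrophil, monocyte and mast cell lists. They lie to the right by less for the endothelial list, whose sum is mostly Pecam1. They lie to the left for the lymphoid list and, by less, for the stem cell list, whose sum falls mostly through Cd34. In the transplant libraries the monocyte sum is mostly Lyz2 and Ly6c2. The second column of library 6 lies with the sedentary libraries.

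Tumours of the same strain gave a measure that played no part in choosing the genes. Of the 9, 7 were listed there, Gp9 and Gp6 not, and tumour values are normalised read counts of the tumour tables. Only 6 of the 7 had a mean of at least 1 in both groups at each week. Gp1bb entered both fits through the sedentary tumours alone. Its sedentary means were 2.00 at week 12 and 9.79 at week 18, and its active means 0 and 0.30. At week 12 none of the 7 passed the threshold, with adjusted p-values of 0.97 to 0.98 (limma), where 0.517% of 19162 genes did. Thbs1 was at 13407, 16297 and 13686 in sedentary and at 12236, 13453 and 8115 in active tumours, with overlapping groups. Pf4 was at 98.4, 181 and 152 in sedentary and at 253, 98.9 and 342 in active tumours, also overlapping.

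At week 18 none of the 7 passed, and limma called 0% of 18939 genes, with 1131 at an unadjusted p under 0.05. Thbs1 was at 9194, 10727 and 9602 in sedentary and at 17377, 12654 and 14465 in active tumours, higher in every active tumour by 0.58 ± 0.18 (log2, SE, adjusted p = 0.82, limma). Itga2b was at 377, 158 and 141 in sedentary and at 94.7, 76.9 and 119 in active tumours, lower in every active tumour by 1.08, with a log2 fold change of -1.08 ± 0.43 (SE, adjusted p = 0.82, limma). Neither difference held over all genes tested. The median over the 7 was 0.12 at week 12 and 0.14 at week 18, and neither sign was stable. It was -0.20 at week 12 without active replicate 3, and at week 18 it was -0.50 by edgeR, -0.51 by DESeq2, -0.52 without sedentary replicate 1 and -0.31 without active replicate 1. Of the other megakaryocyte genes 65 were tested in tumours and none passed at either week by limma. At an unadjusted p under 0.05 (limma) were 3 and 2, against 783 of 19162 and 1131 of 18939 genes. DESeq2 called 0 and 1 of the 65, against 208 and 52 of all genes.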

How the data were processed

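RNA was sequenced from sorted HSC and mammary tumours, per the labels' protocols with a stranded mRNA kit, after extraction with a micro-scale column kit (HSC) or TRIzol (tumours). The authors deposited 4 tables of a normalised signal per gene. The genome build was mm10, per the submitters' processing notes, and the aligner, counter and strand setting are not given in the sources used here. In every column 100% of the deposited signal values were whole multiples of 1 step within 0.1 reads, so whole read counts were recovered by dividing by it.

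Within each table limma 3.58.1 (R 4.3.3) was fitted to log2(value + 1), leaving out genes whose mean was under 1 in both groups, with Benjamini-Hochberg adjustment over all genes tested and a threshold of 0.05. Fold changes on this scale understate those of low genes. For transplant against sedentary HSC, recovered reads of the 6 libraries were matched by symbol and brought to 1 scale by a median of ratios. The joint scale of the 10 HSC columns used 12479 genes. It lay 0.13 to 0.15 (log2) above the first table's scale for all of that table's columns and within 0.011 of the second's. edgeR 4.0.16 and DESeq2 1.42.0 on recovered reads were alternatives. The procedure was tested on simulated counts.

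The 9 genes, the gene lists and the tests were chosen with earlier results of these data known. Named were all 9 genes, up to 4 genes per direction with the smallest p past the threshold in each other list (a selection of these is printed), and the 6 genes most like the 9. Same-numbered libraries were checked for pairing by the correlation of their deviations from group means. All 3 pairs exceeded 0.1 for transplant against active HSC (0.110, 0.124 and 0.309) and for week 18 tumours (0.185, 0.201 and 0.189), and only there was the replicate block read as pairs. The main fits used no pairs in any comparison, and the block entered only as an alternative. Nothing says that replicates came from separate animals, so p-values measure the spread between these libraries. Depth is given with the HSC results, and tumour libraries held 20838963 to 28973775 recovered reads. Reads carried no molecular identifiers.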

Additional observations from a re-analysis of the deposited data

How the results depend on the processing

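Differences of the 9 genes kept their sign in HSC under every alternative run, among them another pseudocount, no filter on low values, edgeR, DESeq2, the replicate block, name style as a term, replicates 1 and 2 only and leaving out each library. The median of active against sedentary HSC fell to 0.71 with the other column numbered 6 and ran from 1.41 to 2.93 when 1 library was left out. That of transplant against active HSC was 0.90 with the other column and 1.91 to 2.70 without 1 library, and that of transplant against sedentary HSC was 3.05 to 3.89. Counts of called genes depended on the tool. For active against sedentary HSC, where limma called 0 genes, a pseudocount of 0.1 gave 1 and DESeq2 257, of which 11 were other megakaryocyte genes, and leaving out 1 library gave 0. For transplant against active HSC, where limma called 7, edgeR and the other column numbered 6 gave 1 each, replicates 1 and 2 only and name style as a term gave 0 each, and DESeq2 gave 1107, of which 28 were other megakaryocyte genes. Leaving out 1 library gave 0 to 79 genes, 0 to 1 of them other megakaryocyte genes. With the replicate block this comparison had 0 called genes, with 2832 at an unadjusted p under 0.05. For transplant against sedentary HSC, where limma called 1553 genes and 26 other megakaryocyte genes, edgeR gave 2566 and 42, DESeq2 3181 and 45, the replicate block 95 and 3, replicates 1 and 2 only 40 of the latter, and leaving out 1 library 236 to 1674 and 4 to 37. In that comparison and in active against sedentary HSC the libraries share only a number, and not every pair exceeded 0.1. In week 12 tumours the 99 called genes became 0 with the replicate block, 208 with DESeq2 and 9 to 71 without 1 library. In week 18 tumours the count of 0 became 5 with a pseudocount of 0.1, 52 with DESeq2 and 0 to 5 without 1 library. The block moved no other count of called genes. Of the calls of named list genes in transplant against sedentary HSC, 73 were lost over all genes and alternatives, and the tumour median of the 7 listed genes changed sign. Causes of these changes were not tested. With 3 libraries a group, and 0 to 21 reads for Gp6, Gp9 and Slc6a4 in sedentary libraries, depth limits the ratios of these 3 genes most.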
